A study of Mus musculus with 6 samples.

Results

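Nuclear hormone receptors are transcription factors that bind DNA at short response elements, and most of them change their activity when a small lipid-soluble ligand such as a steroid, thyroid hormone or retinoic acid occupies their ligand-binding domain. Many bind DNA as a pair with a retinoid X receptor (RXR), while steroid receptors pair with themselves. The receptors described here are the members of this superfamily outside the ROR, REV-ERB, LXR, PPAR, NR4A and ERR groups. A list of 31 genes was searched by gene symbol among the probes of a mouse bead array. Of these, 27 genes had 41 probes, out of 17711 genes with a probe on the array. The other 4 genes, Nr3c2 (the mineralocorticoid receptor), Rxra, Nr2e3 and Nr1i3, had no probe with their symbol in the annotation used here. In skeletal muscle, thyroid hormone and its receptors are known to set fibre type and metabolic rate, and glucocorticoids acting through their receptor are known to promote protein breakdown.

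RNA came from the quadriceps femoris, a thigh muscle, of C57BL/6 mice. There were 3 arrays of wild-type mice and 3 arrays of mice carrying RORalpha1delDE, a human RORalpha1 cut short so that its E region and part of its D region, the hinge, are missing. The E region of a nuclear receptor is its ligand-binding domain. The transgene was driven by the human skeletal alpha-actin promoter, which acts in skeletal muscle fibres and not in the other cells of the tissue. All mice were kept on 12 h of light a day, ate chow with 4.6% fat, and were killed in the morning after a night without food. Age and sex are not given in the labels. A single chip held all 6 arrays, the wild-type ones first and the transgenic ones after them, so chip position and genotype cannot be told apart.

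Each array detected between 13979 and 14887 of 46611 probes, with a median signal between 154.5 and 174.9. In each group 0 of 5236 bright probes differed by over 2-fold between arrays 1 and 2, and their differences were not shared by 2 probes of the same gene (r = 0.0341 for wild type and 0.0316 for transgenic, across 525 genes that are not independent replicates). With no difference shared by probes of one gene they were counted as 1 sample, although bead noise itself was not measured. Every mean ± SD below is over n = 2 samples a group: the average of arrays 1 and 2, and array 3. Array 3 differed by more than 2-fold from arrays 1 and 2 at 90 to 101 of these probes in wild type and at 55 to 56 in the transgenic group. Wild-type array 3 differed from the transgenic arrays at 43 to 71 of them, fewer than it did from the other wild-type arrays, whereas wild-type arrays 1 and 2 differed from the transgenic arrays at 120 to 179. Nothing in the labels ties an array to a mouse, so the spread behind the p-values may be partly technical.

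Levels of Rora and of skeletal muscle genes were read first. The mouse Rora probe with a detectable signal, ILMN_1243741, had log2 levels of 12.09 ± 0.08 (wild type) and 12.29 ± 0.35 (transgenic), and a second Rora probe was detected on 0 of 6 arrays. The difference was 0.20 ± 0.22 (SE, limma adjusted p = 0.835). No probe sequences were used here, so it is unknown whether either probe can bind RNA of the human transgene. These values therefore cannot verify the genotype labels. Acta1, skeletal alpha-actin, differed by 0.05, and 6 of 8 skeletal muscle markers were detected. Myog and Myod1, regulators of muscle differentiation, were not detected on any array.

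The promoters shown are those of the 4 receptors, Rarb, Rarg, Rxrg and Nr6a1, that had a kept probe here and at least 1 promoter with a short element or a repeat to which receptors of this family bind. Rarg, Rxrg and Nr6a1 each also have another promoter in the table, in which 0 of the searched motifs was found. Capitals mark the motif: a direct repeat of GTTCA in the promoter of Rarb, which is the well-known retinoic acid response element of that gene, and the single element AGGTCA, read on the other strand in Rarg and, at 2 places, in Nr6a1. All are from RefSeq, assembly GRCm38.p6, run 5′ to 3′ on the strand of the gene and end at the base before the start. Rarb lies at chr14:16575477-16575726 (minus strand), Rarg at chr15:102257523-102257772 (minus strand), Rxrg at chr1:167618015-167618264 (plus strand) and Nr6a1 at chr2:38784516-38784765 (minus strand).
Rarb: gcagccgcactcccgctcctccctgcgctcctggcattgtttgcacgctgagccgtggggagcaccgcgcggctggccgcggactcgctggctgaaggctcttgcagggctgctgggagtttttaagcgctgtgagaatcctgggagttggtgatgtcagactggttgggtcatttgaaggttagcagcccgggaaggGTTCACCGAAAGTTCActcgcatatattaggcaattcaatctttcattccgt
Rarg: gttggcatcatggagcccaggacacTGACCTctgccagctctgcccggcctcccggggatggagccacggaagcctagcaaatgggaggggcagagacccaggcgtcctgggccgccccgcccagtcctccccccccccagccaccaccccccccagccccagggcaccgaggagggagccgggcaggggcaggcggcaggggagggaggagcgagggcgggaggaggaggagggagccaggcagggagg
Rxrg: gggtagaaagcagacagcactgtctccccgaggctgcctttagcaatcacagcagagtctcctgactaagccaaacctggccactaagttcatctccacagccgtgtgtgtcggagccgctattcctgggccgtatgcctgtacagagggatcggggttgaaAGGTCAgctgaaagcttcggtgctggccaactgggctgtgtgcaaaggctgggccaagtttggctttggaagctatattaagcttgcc
Nr6a1: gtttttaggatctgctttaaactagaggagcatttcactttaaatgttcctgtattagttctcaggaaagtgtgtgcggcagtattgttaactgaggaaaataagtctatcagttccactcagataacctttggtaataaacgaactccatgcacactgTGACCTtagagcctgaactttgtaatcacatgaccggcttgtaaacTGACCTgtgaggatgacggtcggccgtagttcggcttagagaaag

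The repeat in the Rarb promoter lies 52 to 37 bases before the start, the element of Rarg 225 to 220 bases, that of Rxrg 88 to 83 bases and the first of Nr6a1 91 to 86 bases before it, each in the promoter printed. The 250 bases before each start were searched on both strands for AGGTCA, for TAGGTCA, which contains it and matches the core of the element that ROR receptors bind as monomers, and for the repeat, GTTCA and again GTTCA after 6 other bases. Of 32851 mouse promoters, 14.0% held AGGTCA, 2.23% held TAGGTCA and 22 held the repeat. The promoter table held 40 promoters of 27 of the 31 receptor genes. Of these 40, 8 held AGGTCA, 0 held TAGGTCA and 1, that of Rarb, held the repeat. These matches describe letters in a window and not binding.

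A probe was called detected at a detection p under 0.05, and it was kept for comparison where this held on at least 3 of the 6 arrays. Of the 27 receptor genes with a probe, 14 passed (51.9%), against 8397 of 17711 genes (47.4%). In probes, 17 of 41 passed, or 41.5%, beside 30.9% of all probes on the array. In 12 genes a probe was detected on all 6 arrays: Esr1, Thra, Rarb, Rxrb, Rxrg, Nr2c1, Nr2e1, Nr2f1, Nr2f2, Nr2f6, Nr5a1 and Nr6a1. Rarg was detected on 4 arrays and Hnf4a on 3. The number of receptor genes detected on 1 array ran from 12 to 14 in both groups, the same range in wild-type and transgenic muscle. A detection p under 0.01 on at least 3 arrays left 11 genes, without Rarg, Hnf4a and Nr2e1.

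The other 13 genes with a probe were detected on 0 of 6 arrays. They are Nr3c1, Pgr, Esr2, Thrb, Rara, Vdr, Nr1h4, Nr1i2, Hnf4g, Nr2c2, Nr5a2, Nr0b1 and Nr0b2. Several are receptors best known from other organs: Nr1h4 is the bile acid receptor FXR and Nr1i2 the xenobiotic receptor PXR of liver and intestine, Hnf4g is an HNF4 of gut and kidney, Nr5a2 is the liver receptor homolog LRH-1, and Nr0b2 (SHP) and Nr0b1 (DAX-1) are receptors without a DNA-binding domain that repress other receptors. Pgr is the progesterone receptor, Esr2 oestrogen receptor beta and Vdr the vitamin D receptor. The probes detected on no array lay between 4.70 and 5.77 on the log2 scale, where only a bound and no level is measured.

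Some of these genes are known to act in skeletal muscle. Nr3c1 encodes the glucocorticoid receptor, and its 1 probe read 5.51, 5.07 and 5.38 on the wild-type arrays and 5.76, 5.77 and 5.69 on the transgenic arrays. Its smallest detection p, 0.0586, was the smallest among the receptor probes that were detected nowhere, and it remained on the undetected side on all 6 arrays. Thrb, thyroid hormone receptor beta, and Rara, retinoic acid receptor alpha, each had 1 probe. The sources used here do not say which transcript forms these probes read, so an undetected probe does not show that the gene is silent.

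**Figure D1:**
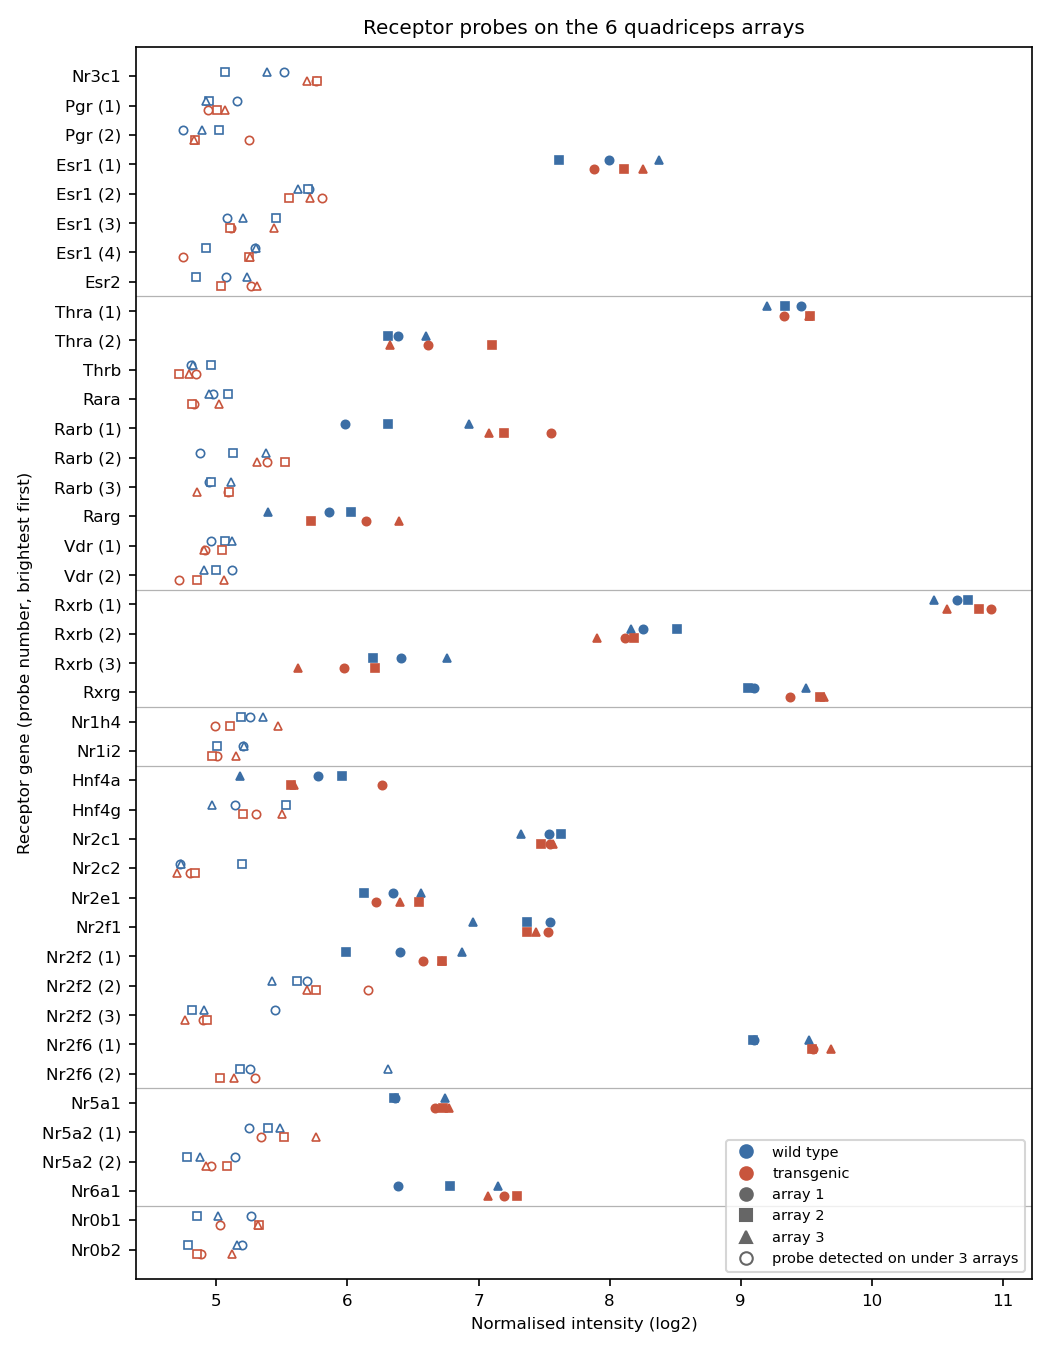
Level of each of the 41 receptor probes on each of the 6 arrays, on the normalised log2 scale (x axis), with probes in rows grouped by receptor class. Blue is wild type and red transgenic, circles, squares and triangles are arrays 1, 2 and 3, and open symbols are probes detected on fewer than 3 arrays. The 24 open rows lie between 4.70 and 6.31, and in the 17 filled rows the colours mix in all but Rarb and the first probe of Nr2f6.

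No receptor probe passed the test for a difference between transgenic and wild-type muscle. At a limma adjusted p under 0.05, 0 of 17 receptor probes passed, beside 1 of all 14420 kept probes (0.00693%), and the adjusted p-values of the receptors ran from 0.647 to 0.995. At an unadjusted p under 0.05, 1 of 17 passed (5.88%), beside 7.64% of all kept probes. With the 6 arrays taken as separate samples, 0 of 17 passed the adjusted threshold, beside 0.374% of all probes (0.139% higher and 0.236% lower). In that fit 2 receptor probes were higher at an unadjusted p under 0.05, beside 7.49% of all probes, and 1 was lower, beside 7.55%, or 3 in all beside 15%. Differences of 1 or more on the log2 scale, a 2-fold change, were found at 0 receptor probes and at 1.29% of all probes. The smallest p that an exact permutation test allows is 0.333 with 2 samples a group and 0.1 with 3 arrays a group. The 95% intervals of the single probes, given below, rest on the spread between these samples, which may be partly technical. They do not separate genotype from chip position.

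The receptors of steroid hormones come first. Esr1, oestrogen receptor alpha, was read by 4 probes, and 1 of them, ILMN_2726412, was detected on all arrays. It stood at 7.998, 7.61 and 8.38 on the wild-type and 7.88, 8.11 and 8.26 on the transgenic arrays. The groups overlapped fully, and the difference was 0.04 ± 0.25 (SE) with a 95% interval from -0.57 to 0.64. A second Esr1 probe was detected on 1 array only, at a detection p of 0.0499. The glucocorticoid receptor, the progesterone receptor and oestrogen receptor beta gave no detectable signal, as said above.

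Thra encodes thyroid hormone receptor alpha, the main thyroid hormone receptor form of skeletal muscle, and both of its probes were detected on all arrays. The first, ILMN_1256036, read 9.46, 9.34 and 9.20 in wild type and 9.33, 9.53 and 9.52 in the transgenic group. The arrays overlapped, and the difference of 0.18 ± 0.18 had an interval from -0.27 to 0.62. The second, ILMN_2687190, read 6.38, 6.31 and 6.60 against 6.61, 7.10 and 6.32. Both probes lay slightly above 0, the second by 0.12 ± 0.24, and neither passed the test (adjusted p = 0.819 and 0.918).

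Among the retinoic acid receptors, Rarb and Rarg were detected. Rarb, itself a well-known target of retinoic acid through the promoter repeat shown above, had the largest difference of the 17 receptor probes with the settings used here, followed by -0.67 at a probe of Rxrb, which was the larger under some alternatives, such as median centring (-0.72 against 0.61). Its probe ILMN_2617194 read 5.98, 6.31 and 6.93 on the wild-type arrays and 7.55, 7.20 and 7.08 on the transgenic arrays. All 3 transgenic arrays lay above all 3 wild-type arrays, with wild-type array 3 the closest to them. The probe was dim, with a detection p under 0.01 on 4 of 6 arrays. In the signals before normalisation, transgenic array 3 (253.6) lay below wild-type array 3 (260.5). The samples were at 6.54 ± 0.55 and 7.23 ± 0.21 (SD, n = 2), a difference of 0.69 ± 0.29 (SE) or 1.61-fold (95% interval 0.982 to 2.65), which did not pass (adjusted p = 0.656).

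The size of the gap at Rarb varied with the wild-type sample it was set against. Without wild-type array 3 the log2 difference was 1.08, and without wild-type arrays 1 and 2 it was 0.30. Either setting, here and at the genes below, leaves 1 sample in the group, assumed to vary like the other group. It was also 0.30 without background correction and 0.31 in the authors' deposited log2 values, and the adjusted p was 0.185 at its lowest, with 6 separate arrays. The other 2 Rarb probes were not kept. Rarg, retinoic acid receptor gamma, lay near the detection limit: its probe was detected on 2 of 3 arrays in each group and read 5.86, 6.02 and 5.39 in wild type and 6.14, 5.72 and 6.39 in transgenic muscle. The values interleaved, with a difference of 0.49 ± 0.27 and an interval from -0.16 to 1.15. The Rarg difference was 0.22 without wild-type array 3, 0.26 without transgenic array 3 and 0.19 without background correction.

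RXRs are the shared partners of the thyroid hormone, retinoic acid and vitamin D receptors. Rxrg, the RXR form typical of skeletal muscle, was detected on all arrays at 9.10, 9.06 and 9.50 in wild type and 9.37, 9.61 and 9.64 in transgenic muscle. Wild-type array 3 lay within the transgenic values. The difference was 0.28 ± 0.21, with an interval from -0.24 to 0.79 (adjusted p = 0.763). It was 0.48 without wild-type array 3 and 0.07 without wild-type arrays 1 and 2.

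Rxrb, a widely expressed RXR, had 3 kept probes that did not move together. Probe ILMN_2593038 read 10.65, 10.74 and 10.48 in wild type and 10.91, 10.82 and 10.57 in transgenic muscle, a difference of 0.13 ± 0.20. Probe ILMN_1245492 read 8.26, 8.51 and 8.17 against 8.11, 8.19 and 7.90, a difference of -0.25 ± 0.19. Both intervals held 0.

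The remaining Rxrb probe, ILMN_2547313, was the only receptor probe with an unadjusted p under 0.05 in the fit to averaged samples. In the same, lower direction 4.15% of all kept probes had such a p, and in the other direction 3.49% did, among them 0 receptor probes. It read 6.41, 6.19 and 6.76 on the wild-type arrays and 5.97, 6.21 and 5.63 on the transgenic arrays, where it was detected on 2 of 3. Transgenic array 2 lay within the wild-type values. The difference was -0.67 ± 0.25 with an interval from -1.29 to -0.05 and an adjusted p of 0.647, and the difference was -0.25 without background correction. The 3 probes thus differed in sign, and none passed.

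The group of HNF4, COUP-TF, TR2/TR4 and TLX receptors, most of which are orphans that act without a known hormone, had 6 genes with a kept probe. Nr2f6 (EAR2), a COUP-TF relative that acts mainly as a repressor, read 9.10, 9.10 and 9.52 on the wild-type and 9.56, 9.55 and 9.69 on the transgenic arrays at probe ILMN_2777598. All transgenic arrays lay above all wild-type arrays, but wild-type array 3 lay close below the lowest of them. The difference was 0.31 ± 0.21, with an interval from -0.21 to 0.83 (adjusted p = 0.74), and it was 0.52 without wild-type array 3 and 0.10 without wild-type arrays 1 and 2.

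The COUP-TF receptors Nr2f1 and Nr2f2, known for roles in vessel, nerve and mesenchymal development, were both detected on all arrays. Nr2f1 read 7.55, 7.37 and 6.96 in wild type and 7.53, 7.37 and 7.44 in transgenic muscle, a difference of 0.24 ± 0.22. Nr2f2 read 6.40, 5.99 and 6.88 against 6.58, 6.72 and 6.72, a difference of 0.15 ± 0.26. The Nr2f2 difference was 0.49 without wild-type array 3, 0.05 without wild-type array 2 and -0.19 without wild-type arrays 1 and 2. In both genes the transgenic arrays lay within the range of the wild-type arrays, and wild-type array 3 was the lowest of its group in Nr2f1 and the highest in Nr2f2.

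Nr2c1 (TR2), a repressor that pairs with TR4, hardly varied over the 6 arrays, with 7.53, 7.63 and 7.32 in wild type and 7.55, 7.48 and 7.57 in transgenic muscle. The difference was 0.09 ± 0.19. Nr2c2, which encodes its partner TR4, was not detected. Nr2e1 (TLX), best known from neural stem cells, read 6.35, 6.13 and 6.56 against 6.22, 6.54 and 6.40, and had the smallest difference of the 17 probes, -0.01 ± 0.19. Hnf4a, a regulator of liver and gut genes, was detected on 2 wild-type arrays and 1 transgenic array only, with values of 5.78, 5.96 and 5.18 against 6.27, 5.57 and 5.59 and a difference of 0.23 ± 0.28. The adjusted p-values of these 3 genes ran from 0.846 to 0.995.

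Nr5a1 (SF-1), best known from adrenal gland and gonads, and Nr6a1 (GCNF), best known from germ cells and embryos, were both detected on all arrays. Nr5a1 read 6.36, 6.35 and 6.75 in wild type and 6.67, 6.73 and 6.77 in transgenic muscle, and Nr6a1 read 6.39, 6.78 and 7.15 against 7.19, 7.29 and 7.08. In both genes wild-type arrays 1 and 2 lay below all transgenic arrays and wild-type array 3 lay among them. The differences were 0.18 ± 0.20 and 0.29 ± 0.24, with intervals from -0.31 to 0.68 and from -0.29 to 0.88 (adjusted p = 0.833 and 0.773). Without wild-type array 3 that of Nr6a1 was 0.57, and without wild-type arrays 1 and 2 it was 0.01. Each gene rested on 1 probe, and binding of that probe to other transcripts was not tested.

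**Figure D2:**
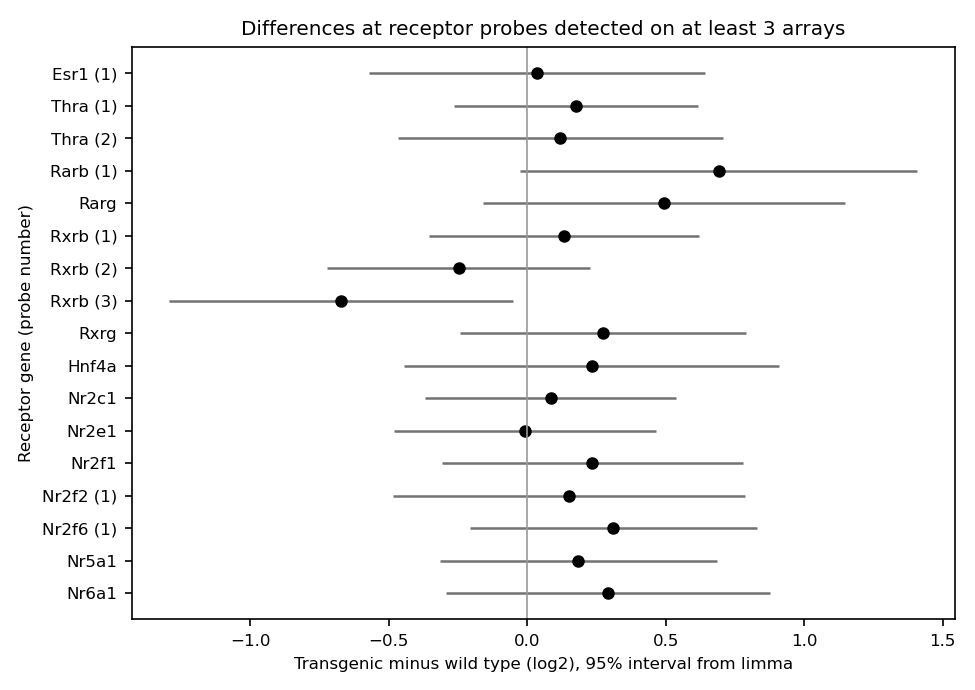
Difference between transgenic and wild-type samples at each of the 17 kept receptor probes, on the log2 scale, with the 95% interval from limma (n = 2 samples a group). The estimates run from -0.67 (Rxrb, dimmest probe) to 0.69 (Rarb), and every interval but that of this Rxrb probe holds 0.

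Most receptor differences were small and lay on the upper side of 0. Of the 17 probes, 14 were above 0 (82.4%), beside 52.8% of all kept probes, and their median was 0.18, beside 0.02. Of the 17 probes, 3 had both transgenic samples above both wild-type samples and 2 had both below, or 5 in all (29.4%), beside 39.6% of all kept probes. With single arrays, 2 probes, those of Rarb and Nr2f6, had all transgenic arrays above all wild-type arrays (11.8%), beside 12.1% of all probes, and 0 had all below, beside 9.76%. The groups thus separated no more often at receptor probes than at other probes.

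The count of 14 depended on which wild-type sample was used. Without wild-type arrays 1 and 2, 10 of 17 probes lay above 0 with a median of 0.07. Leaving out wild-type array 3 gave 12 of 17, leaving out transgenic arrays 1 and 2 or transgenic array 3 gave 13 of 17, and no single array left out gave fewer than 12. Of the 17 probes, 9 turned their sign under at least 1 alternative: those of Esr1, Hnf4a, Nr2c1, Nr2e1, Nr2f1, Nr2f2 and Nr5a1, the second of Thra and the first of Rxrb.

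The 2 wild-type samples differed from each other by more than the genotypes did in the median of the receptor probes. The size of the difference between wild-type array 3 and the mean of wild-type arrays 1 and 2 had a median of 0.42 over the receptor probes, beside 0.24 over all probes. For the transgenic samples it was 0.17, beside 0.20, and for the genotypes 0.23, beside 0.18. Wild-type array 3 lay above arrays 1 and 2 at Rarb by 0.78 and in the median of the receptor probes by 0.32, where the median of all probes was 0.02. Only 1 of 17 receptor probes had a genotype difference larger than both of these within-group differences (5.88%), beside 26.4% of all probes.

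**Figure D3:**
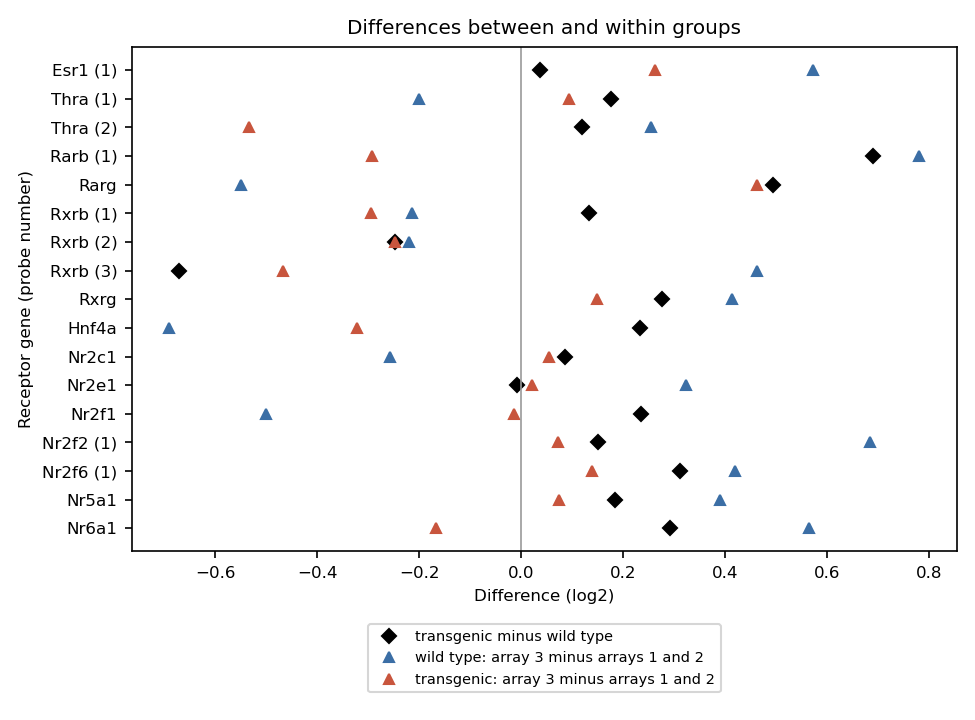
Difference between the genotypes (diamonds) and between the 2 samples within each group (triangles, array 3 minus the mean of arrays 1 and 2, blue for wild type and red for transgenic) at the 17 kept receptor probes, on the log2 scale. The blue triangles spread most, with a median size of 0.42, against 0.23 for the diamonds and 0.17 for the red triangles.

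Receptors act through coactivators, corepressors and chaperones, which were described by lists, 1 probe a gene, the brightest. Of 118 listed genes in these and the lists that follow, 75 had a kept probe, 0 passed the threshold and 9 had an unadjusted p under 0.05, beside 7.64% of all kept probes. Among 13 detected coactivators, 9 lay above 0 and 4 below, with a median difference of 0.12. The 3 with the smallest p were Ncoa6 at 0.42 ± 0.22 (SE), the SWI/SNF ATPase gene Smarca4 at 0.29 ± 0.20 and Ncoa2 at 0.32 ± 0.23, with limma adjusted p-values from 0.691 to 0.748. The list holds the p160 family (Ncoa1 to Ncoa3), which receptors with bound ligand recruit directly.

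Of 13 detected corepressor genes, 8 lay above 0 and 5 below, with a median of 0.03. The histone deacetylase genes Hdac4 (0.53 ± 0.19) and Hdac1 (0.52 ± 0.21) and the repressor gene Zbtb16 (-0.43 ± 0.18) had the smallest p, with adjusted p from 0.644 to 0.653, and the samples of the groups did not overlap in any of the 3. Over the whole list they did not overlap in 5 of 13 genes, 4 higher and 1 lower, beside 39.6% of all kept probes. Hdac4 stood at 10.13 and 10.41 in the wild-type samples and at 10.76 and 10.83 in the transgenic samples. Receptor chaperones, the proteins that hold steroid receptors ready for ligand, had 7 of 9 detected genes above 0 and a median of 0.22, led by Ptges3, the co-chaperone p23, at 0.47 ± 0.18, with Bag1 at 0.23 ± 0.17 and Stip1 at 0.27 ± 0.22 (adjusted p = 0.647, 0.76 and 0.782).

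Genes that supply ligand gave few detected members. For thyroid hormone, 2 of 7 genes with a probe were kept, and the deiodinase genes Dio1 and Dio3 were not detected on any array. Slc16a10, a transporter of aromatic amino acids and thyroid hormone, read 10.02 and 10.26 in the wild-type samples and 9.32 and 9.53 in the transgenic samples, which do not overlap, as in 39.6% of all kept probes. Its difference was -0.71 ± 0.19 (adjusted p = 0.585), and that of Crym, a thyroid hormone binding protein of the cytosol, was 0.18 ± 0.23.

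For retinoids, 7 of 16 genes with a probe were kept, 5 above and 2 below 0, with a median of 0.09. The 3 with the smallest p were Aldh1a1, which makes retinoic acid, at 0.49 ± 0.20, Adh1, an alcohol dehydrogenase, at -0.18 ± 0.21, and Cyp26b1, which degrades retinoic acid, at 0.22 ± 0.35 (adjusted p from 0.651 to 0.895). Of corticosteroid supply, Hsd11b1, which regenerates active glucocorticoid inside cells, read 10.55 and 10.71 in the wild-type and 9.84 and 10.12 in the transgenic samples, a difference of -0.65 ± 0.19 (adjusted p = 0.622), and H6pd, which provides its cofactor, was at -0.26 ± 0.22. In the vitamin D list 1 gene was kept, the sterol hydroxylase gene Cyp27a1, at 0.11 ± 0.20.

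Known targets of thyroid hormone and glucocorticoids lay mostly below 0 in transgenic muscle, without a gene past the threshold. Over all 14420 kept probes, 6805 lay below 0. Of 25 glucocorticoid targets, all detected, 23 lay below 0 and 2 above, with a median of -0.43, beside 0.02 over all kept probes. Both transgenic samples lay below both wild-type samples in 5 of the 25, a share near the 18.1% of all probes. Cebpd, a transcription factor, read 7.61 and 7.37 in wild type and 6.65 and 6.32 in the transgenic samples (-1.004 ± 0.21, adjusted p = 0.472). Pik3r1, a regulatory subunit of phosphoinositide 3-kinase, differed by -1.14 ± 0.31, and Angptl4, an inhibitor of lipoprotein lipase, by -0.84 ± 0.29 (adjusted p = 0.585 and 0.638).

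Within the wild-type group the glucocorticoid targets were also far apart: relative to the mean of both wild-type samples, their median was 0.42 in arrays 1 and 2 and -0.42 in array 3. The transgenic samples were at -0.24 and -0.47 on the same scale. Wild-type array 3 thus lay between the 2 transgenic samples.

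Of the thyroid hormone targets, 7 were detected, 1 above and 6 below 0, with a median of -0.23. Thrsp, a lipogenic gene, read 8.47 and 8.66 in the wild-type and 6.77 and 7.72 in the transgenic samples (-1.32 ± 0.33, adjusted p = 0.569), and Ucp3, a mitochondrial carrier gene, differed by -0.44 ± 0.25. Slc2a4 was at -0.03, and Klf9 is also counted among the glucocorticoid targets. Wild-type array 3 stood at 13.82 in Klf9, 8.71 in Hr and 11.28 in Ucp3. In these genes it was nearer to both transgenic samples than to wild-type arrays 1 and 2, but not in Thrsp. Atp2a2, the calcium pump of slow fibres, stood at 13.80 and 13.67 in wild type, 14.26 in transgenic arrays 1 and 2 and 11.08 in transgenic array 3, a difference of -1.06 ± 0.93 that rests on that array. Without transgenic arrays 1 and 2, Atp2a2 passed the threshold (adjusted p = 0.0222), the only one of these related genes to do so in any setting tried.

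**Figure D4:**
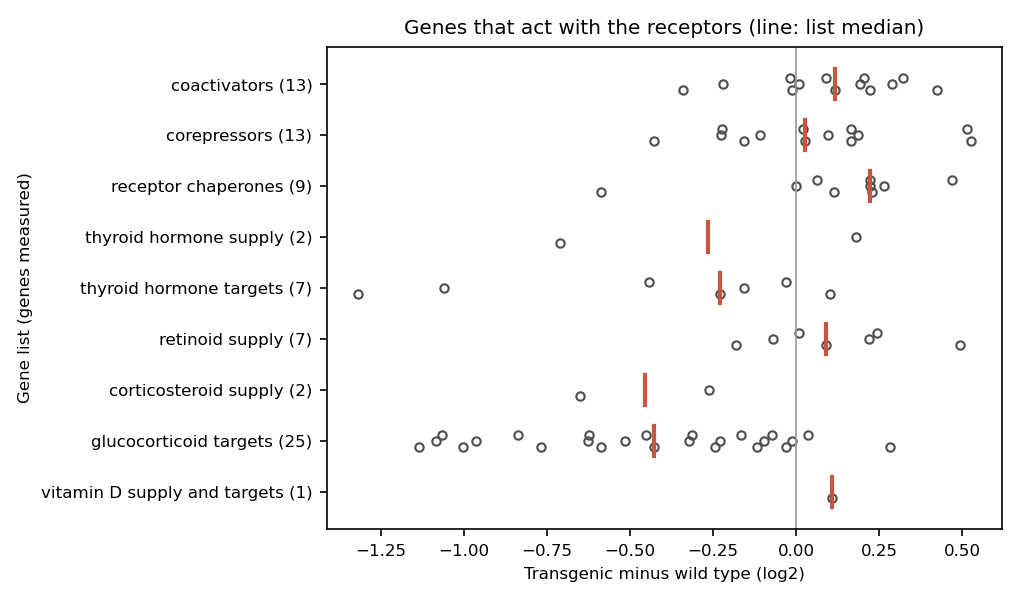
Difference between transgenic and wild-type samples of each detected gene (circles) in 9 lists of genes that work with or respond to the receptors, on the log2 scale, with the median of each list as a red line. The medians run from -0.46 (corticosteroid supply, 2 genes) to 0.22 (chaperones), and the glucocorticoid targets lie on the lower side with 23 of 25 genes. Of all 14420 kept probes, 6805 lay below 0.

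Levels of cell type markers differed between samples, and in whole muscle fewer cells of a type and less RNA per cell cannot be told apart. All 5 detected adipocyte markers, of 8 with a probe, lay below 0 in the transgenic samples with a median of -1.46. Lep and Retn were not detected on any array. Ucp1 and Pck1 were detected on 3 wild-type and 0 transgenic arrays. The filter thus kept them through the wild-type arrays alone, so their direction does not support this count. Among the 5 markers, Ucp1 of brown fat passed the threshold (limma adjusted p = 0.00103), a call that rests on undetected transgenic values. The summed level of the 5 markers was 9975 and 15610 in the wild-type samples, and 1140 and 3513 in the transgenic ones. This sum and the median above include Ucp1 (12.19 and 12.72 in the wild-type samples) and Pck1, so they are affected by the same filter. Adipoq read 9.23 in transgenic arrays 1 and 2 and 11.05 in transgenic array 3, against 10.74 and 11.79 in the wild-type samples. Cidec read 8.26 and 10.18 against 10.73 and 10.62. At Cidea both transgenic samples (7.33 and 7.27) lay close together, below the wild-type samples (10.85 and 11.83). At Ucp1 and Pck1 the transgenic values were undetected and give only a bound, so their closeness is not a measured agreement. Thrsp, Angptl4 and Hsd11b1 are also expressed in fat cells. The part of fat tissue in the values of these genes and of the receptors was not tested.

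Some markers of other cell types also moved with single samples. Relative to the wild-type mean, the median of 9 slow fibre markers was 0.36 in transgenic arrays 1 and 2 and -3.34 in transgenic array 3. Their summed level lay between 91369 and 99809 in wild type and between 12236 and 132340 in the transgenic group. All 7 detected macrophage markers lay above 0 with a median of 0.69, and 1.13 in transgenic array 3, with summed levels between 877 and 1134 in wild type and between 1029 and 2005 in the transgenic group. Markers of fast fibres (0.02) and endothelium (0.01) had medians near 0, and fibroblast markers had one of 0.33. Over the 17 receptor probes the 2 transgenic samples differed by a median size of 0.17, beside 0.20 over all kept probes. The part of these cell types in the receptor values was not tested.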

How the data were processed

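The authors deposited bead-averaged intensities on a linear scale (made with BeadStudio 2.3.41 according to the submitters' processing notes). A detection p-value stands beside each signal per the file headers; it rose with signal and was read as 1 minus the p-value. Their second deposited table holds log2 values centred per probe. Signal rows were displaced against the probe identifiers by 0 to 21 rows and were returned by matching differences between arrays within 0.002, which placed 46611 of 46632 probes.

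Intensities were processed with neqc of limma 3.58.1 in R 4.3.3 (normexp background correction, offset 16, quantile normalisation, log2) after alignment in Python 3.11.15. A probe was kept where its detection p was under 0.05 on 3 or more arrays (14420 probes). Arrays of a group with r under 0.1 between 2 probes of the same gene were averaged. Groups were compared with lmFit and eBayes, two-sided, with Benjamini-Hochberg adjustment over all kept probes. The steps were tested on simulated data. The number of arrays limits the precision.

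Gene symbols came from a platform annotation table checked against RefSeq (29976 probes with 1 symbol, 10 with several, 16646 with none here). Every receptor with a kept probe is named with its values, and in each related list up to 3 genes with the smallest p. The receptors, lists and tests were chosen with earlier results of these data known.

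Nothing in the labels says that the shared replicate numbers 1 to 3 pair arrays, and the main fit did not pair them. The deviations of same-numbered arrays from their group means correlated at -0.0145, 0.0679 and 0.0969 over 5237 probes. These values cannot decide whether the samples are paired. The alternatives are given in the closing section.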

Additional observations from a re-analysis of the deposited data

How the results depend on the processing

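No receptor probe passed the threshold under any of the 19 alternatives (unadjusted p under 0.05 at 0 to 3 probes), and the smallest limma adjusted p was 0.185. Of 320 receptor differences, 298 kept their direction and 22 turned it. The count of changed probes over the whole array was 1. It was 54 with 6 separate arrays and 13 when the RNA sample was a random block. An offset of 50 gave 9, no background correction 8, the authors' deposited log2 values 7, an intensity trend 10 and median centring 3. Among probes detected on all 6 arrays limma gave 0, with 919 of 11908 at an unadjusted p under 0.05. With the replicate number as a block it was 15 for 6 arrays and 1 for averaged samples, and the block changed no receptor call. Wild-type array 1 correlated best with transgenic array 2 (0.108). Transgenic arrays 1 and 2 are counted as 1 sample, so this cannot decide whether the numbers pair the samples. Between the groups, the differences of array 3 from arrays 1 and 2 averaged correlated at 0.0969. Leaving out 1 array gave 1 to 8, with 8 without transgenic array 3. Leaving out transgenic arrays 1 and 2 gave 18 probes and 1 related gene, and wild-type arrays 1 and 2 gave 1. These last settings were chosen after seeing the data. They, and those without array 3 of a group, leave 1 sample in that group, assumed to vary like the other group.

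Nr2e1 turned to 0.0424 with 6 separate arrays, with or without the block, to 0.0137 with the random block, and to 0.0024 without transgenic arrays 1 and 2. Median centring gave -0.0575 for Esr1 and -0.00060 for Nr2c1, and moved the median of all probes from 0.02 to -0.06, with 12 of 17 receptors above 0 beside 40.6% of all probes. Without wild-type arrays 1 and 2, Esr1 was at -0.25, Nr2f2 at -0.19, Nr5a1 at -0.0106 and the second Thra probe at -0.0078. Without transgenic arrays 1 and 2 that Thra probe was at -0.15 and the first Rxrb probe at -0.014. With 1 array left out, values ran from -0.0893 to 0.15 for Nr2e1, -0.0947 to 0.32 for Esr1, -0.11 to 0.41 for Hnf4a, -0.0438 to 0.11 for Nr2c1, -0.0148 to 0.28 for Nr2f1 and -0.0033 to 0.39 for the second Thra probe. The cause was not tested. The median of the receptor probes was 0.16 to 0.22 with 1 array left out and 0.07 without wild-type arrays 1 and 2. With no filter on dim probes it stayed at 0.18 for these 17 probes and was 0.06 over all 41. The number of detected receptor genes was 11 at a detection p under 0.01 and 12 where all 6 arrays, or all 3 of a group, were required.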

Other observations

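The genes below were named after their values were seen. Rbp7, a retinol-binding protein of the retinoid supply list, read 7.99 and 7.75 on wild-type arrays 1 and 2 and 10.17 on wild-type array 3, against 10.33 and 10.43 on transgenic arrays 1 and 2 and 8.15 on transgenic array 3. Both groups thus held a high and a low sample, and the difference between the genotypes was 0.24 (limma adjusted p = 0.961).

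The second probe of Nr2f6, ILMN_1215135, was detected on wild-type array 3 only, at 6.31, where the other 5 arrays lay between 5.02 and 5.30.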
